A study of Mus musculus with 5 samples.

Results

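Acetylation of histone H3 at lysine 14 (H3K14ac) was densest, in control blood stem and progenitor cells of the mouse, over a set of 500 genes that are described here. They were chosen from the 16191 genes of the gene body count table with a deposited length of 5000 to 100000 bp, out of 27179 genes in all, as the 500 with the highest mean density over the 2 control libraries. They make up 3.09% of the eligible genes. Density is the gene body count, scaled to the library's gene body total as counts per 1e6 counts (CPM), divided by the gene length in kb. The choice used the control gene body counts, so the height of the members in the controls and their gene body difference between knockout and control are descriptions, and nothing is read from the calls on them. The signal in the 5 kb upstream of the start site and the 5 kb downstream of the gene end was counted separately and was not used to choose them.

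LSK cells were sorted from the bone marrow of male C57BL/6 mice. They lack mature blood lineage markers, carry Sca-1 and Kit on their surface, and include the stem cells of blood and its early progenitors. The mark was mapped by CUT&Tag, in which an antibody brings the Tn5 transposase to the marked nucleosomes and Tn5 inserts sequencing adapters there. The 2 control libraries have the genotype Hbo1def/+; T/+ and the 2 knockout libraries Hbo1def/def; T/+, so that the controls also carry 1 copy of the def allele. All 4 came from mice given poly(I:C), an interferon inducer, to switch on Mx1-cre, a recombinase under an interferon-induced promoter that is active in blood cells and in other tissues. Ages, and whether each library came from a separate mouse, are not given in the sources used here, so the p-values rest on library-to-library spread that may be technical. A library of KAT7 binding in control cells was not analysed here.

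HBO1, also called KAT7, is the lysine acetyltransferase that acetylates H3K14 in a complex with a BRPF scaffold protein and other subunits. H3K14ac is found around active start sites, and also at lower levels over broad stretches of chromatin. A transposase-based assay cuts open DNA more readily than closed DNA, and counts summed over a whole gene weigh the broad signal of the body more than the peak at the start site. CpG islands, CpG-dense stretches that hold the start sites of most widely expressed genes, are the usual setting of sharp start-site peaks.

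The start regions of 7 members are printed because most members had start sites poor in CpG. Mroh2a, Serpina3f and Serpina3g stand for the densest genes, Il12a for genes higher over the body in both knockout libraries (its upstream flank was lower), Ppp6r1 for genes higher in both regions, and Kif12 and Opn4 for genes lower in both regions. Each is the 250 bases before to the 50 bases after the start, 5′ to 3′ on the gene's strand, from RefSeq on GRCm38, with every CpG in capitals. The positions are Mroh2a (chr1:88226770-88227069, plus strand, 0 CpG), Serpina3f (chr12:104214294-104214593, plus strand, 0 CpG), Serpina3g (chr12:104235897-104236196, plus strand, 4 CpG), Il12a (chr3:68690394-68690693, plus strand, 3 CpG), Ppp6r1 (chr7:4658901-4659200, minus strand, 34 CpG), Kif12 (chr4:63172082-63172381, minus strand, 1 CpG) and Opn4 (chr14:34600093-34600392, minus strand, 4 CpG).
Mroh2a: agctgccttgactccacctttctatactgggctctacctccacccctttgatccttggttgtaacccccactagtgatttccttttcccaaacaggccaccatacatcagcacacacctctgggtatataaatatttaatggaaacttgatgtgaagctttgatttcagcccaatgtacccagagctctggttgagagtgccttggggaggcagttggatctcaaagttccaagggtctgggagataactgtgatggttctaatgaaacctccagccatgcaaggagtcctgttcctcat
Serpina3f: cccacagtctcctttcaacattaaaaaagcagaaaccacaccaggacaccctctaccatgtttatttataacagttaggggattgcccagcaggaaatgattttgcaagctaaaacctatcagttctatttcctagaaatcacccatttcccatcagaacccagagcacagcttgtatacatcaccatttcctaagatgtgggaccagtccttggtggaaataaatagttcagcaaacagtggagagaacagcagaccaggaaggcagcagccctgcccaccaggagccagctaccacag
Serpina3g: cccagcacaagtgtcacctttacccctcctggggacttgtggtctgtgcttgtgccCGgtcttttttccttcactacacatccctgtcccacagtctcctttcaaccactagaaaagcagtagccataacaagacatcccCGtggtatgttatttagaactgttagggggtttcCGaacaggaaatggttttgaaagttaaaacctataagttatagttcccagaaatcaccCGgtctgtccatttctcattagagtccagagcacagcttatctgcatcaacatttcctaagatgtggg
Il12a: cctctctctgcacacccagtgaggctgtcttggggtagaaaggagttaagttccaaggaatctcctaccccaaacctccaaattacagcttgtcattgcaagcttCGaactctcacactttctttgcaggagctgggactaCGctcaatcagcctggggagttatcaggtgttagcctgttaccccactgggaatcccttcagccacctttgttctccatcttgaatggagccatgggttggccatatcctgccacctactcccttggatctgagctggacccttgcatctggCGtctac
Ppp6r1: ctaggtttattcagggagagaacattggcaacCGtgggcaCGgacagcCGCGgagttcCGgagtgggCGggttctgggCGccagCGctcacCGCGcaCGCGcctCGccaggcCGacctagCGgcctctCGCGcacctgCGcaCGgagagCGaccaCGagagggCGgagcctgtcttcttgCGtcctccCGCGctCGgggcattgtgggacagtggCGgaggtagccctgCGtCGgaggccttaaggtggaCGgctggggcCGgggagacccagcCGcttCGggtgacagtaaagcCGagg
Kif12: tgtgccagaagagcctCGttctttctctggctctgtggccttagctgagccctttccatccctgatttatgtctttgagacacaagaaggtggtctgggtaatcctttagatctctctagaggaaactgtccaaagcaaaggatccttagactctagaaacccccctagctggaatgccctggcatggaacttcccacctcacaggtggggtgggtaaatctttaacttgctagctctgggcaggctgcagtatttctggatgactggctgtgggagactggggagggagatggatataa
Opn4: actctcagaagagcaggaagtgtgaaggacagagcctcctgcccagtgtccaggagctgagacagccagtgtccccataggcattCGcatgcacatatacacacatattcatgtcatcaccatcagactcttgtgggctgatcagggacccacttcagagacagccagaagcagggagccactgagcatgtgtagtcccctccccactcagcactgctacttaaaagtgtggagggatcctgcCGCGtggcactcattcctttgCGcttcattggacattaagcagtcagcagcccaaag
The Ppp6r1 start region held 34 CpG, against 0 to 4 in the other 6. Of the 500 members, 376 had a start region in the RefSeq table, with a median of 5 CpG, against 15 over the 12151 eligible genes that had one.

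Gene body totals were 12386891 and 10572534 counts in controls 1 and 2, and 4723549 and 6031189 in knockouts 1 and 2. Upstream totals lay between 869859 and 1164409 and downstream totals between 677213 and 1260351. The shallower knockout libraries therefore carry the larger counting error: the least covered member in any library had 22 gene body counts, and the median member had 127 in the shallowest library. Kat7, the targeted gene, was no member. Its gene body density was 0.654 and 0.749 CPM per kb in the controls and 2.63 and 1.13 in the knockouts (log2 fold 1.06 ± 0.32, edgeR adjusted p = 0.00668). Its upstream flank went the other way, with 44.7 and 45.4 CPM in the controls and 15.9 and 25.3 in the knockouts (log2 fold -0.97 ± 0.47, edgeR adjusted p = 0.0872). H3K14ac over a gene does not show whether its allele was deleted. Of 10 stem and progenitor marker genes 5 fell within the length rule (Kit, Cd34, Flt3, Gata2 and Hlf), and none of these was a member. Ly6a, which encodes Sca-1, was too short to be eligible at 3012 bp and read 3.40 and 4.02 CPM per kb in the controls, above the members' threshold. Over all 10 the median density was 1.33 and 1.47 CPM per kb in the controls and 2.86 and 1.99 in the knockouts. Of the eligible markers, 0 of 2 granulocyte and monocyte, 0 of 2 B cell and 0 of 1 erythroid genes were members, and 1 of 3 T cell genes, Cd8a, was. S100a8, a neutrophil gene too short to be eligible, read 6.87 and 4.32 in the controls. In the 4 granulocyte and monocyte markers the median density was 1.70 and 1.43 in the controls and 10.6 and 2.43 in the knockouts, and its part in the results was not tested.

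The members lay between 2.28 and 14.5 CPM per kb in the control mean, with a median of 2.56 against 0.610 over all eligible genes. At the threshold the range was narrow: Plat, tissue plasminogen activator, had 2.279 and Vstm5 2.277 just inside, and Cym, chymosin, had 2.276 and Nid1, a basement membrane protein, 2.275 just outside. The median member read 2.77 and 2.41 CPM per kb in controls 1 and 2, and 1.45 and 1.95 in knockouts 1 and 2. All eligible genes ran the other way, with medians of 0.539 and 0.681 in the controls and 0.977 and 0.924 in the knockouts. As a result the median member stood 5.13 and 3.54 times above the eligible median in the controls, and 1.49 and 2.11 times above it in the knockouts. The 500 next densest genes, which lay just under the threshold, had medians of 2.19, 2.01, 1.30 and 1.71 in the same order of libraries.

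**Figure D1:**
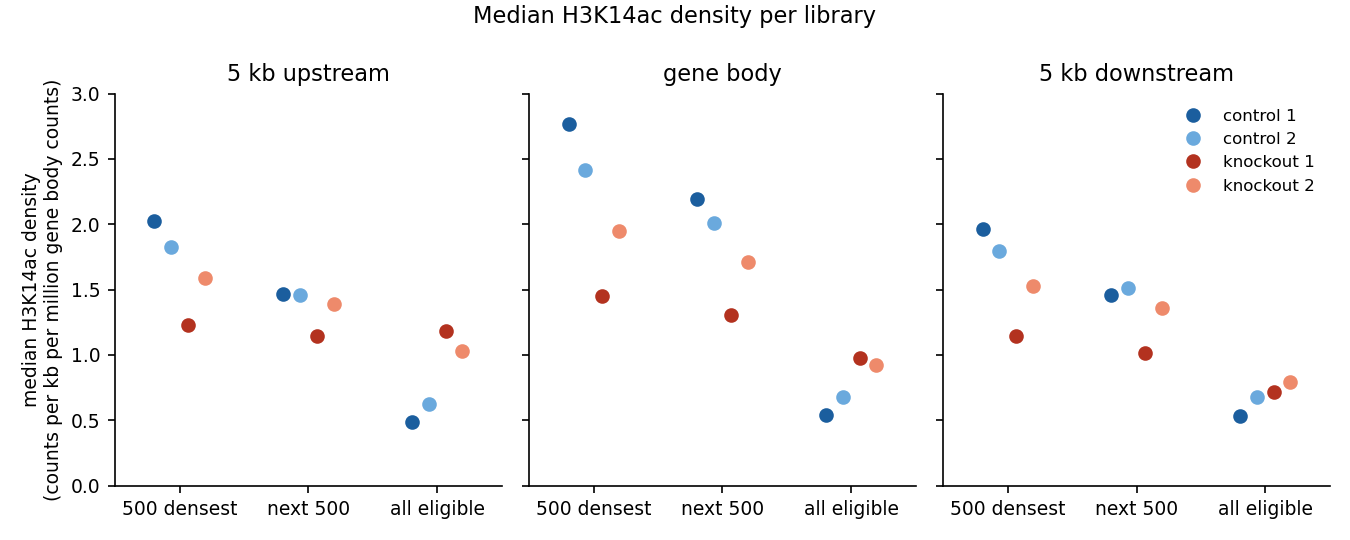
Median H3K14ac density of the 500 densest genes, the next 500 and all 16191 eligible genes, in counts per kb scaled to the gene body total of the library, for the 5 kb upstream, the gene body and the 5 kb downstream; each point is 1 library. For the 500 densest genes both knockouts sit under both controls in all 3 regions, and for all eligible genes both knockouts sit above both controls.

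A single gene, Mroh2a, stood far above the others. It read 16.5 and 12.4 CPM per kb in the controls and 6.95 and 8.0 in the knockouts, and was the densest eligible gene in both controls. It overlaps the end of Hjurp, which encodes the chaperone of the centromeric histone CENP-A and was also a member, so the authors' counting could split reads of the overlap between the pair. The second densest gene, the protein-coding 4931408C20Rik, read 9.61 and 6.83 in the controls and 4.23 and 6.24 in the knockouts. Of the next 8 places, 7 were taken by Serpina3 genes and the last by Mepe, a matrix protein of bone and teeth, with 5.32, 3.58, 2.53 and 2.68. Lyzl1, a lysozyme-like gene, followed with 4.82, 3.76, 2.04 and 2.52. In each of these genes except Serpina3g both knockouts lay below both controls, without overlap. The same held in 86.0% of all members and in 26.5% of all genes tested over the body. These genes were ranked on the control values used here, so this order is a description.

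The Serpina3 genes belong to a run of serine protease inhibitor genes, and this run was the largest cluster of members. Between Serpina9 and Serpina3n, at chr12:103996615-104414334 (GRCm38, 418 kb), all 15 counted genes were among the 500. Their median density was 4.61 and 3.86 CPM per kb in the controls and 2.21 and 2.59 in the knockouts. Control signal rose along the array towards its middle. Serpina1d, the first gene drawn, had 0.603 and 0.753 in the controls. Serpina11, the last gene before the run, had 2.36 and 1.68. Serpina3i, the densest of the run, had 6.76 and 4.86. Beyond the run it dropped to 0.318 and 0.606 over Gsc, a developmental transcription factor gene. The 11 eligible Serpina genes that were no members had medians of 1.02 and 1.16 in the controls and 0.527 and 0.563 in the knockouts. Serpina3g, an inhibitor described in activated T cells and macrophages, departed from its neighbours with 5.23 and 4.60 in the controls and 4.61 and 5.04 in the knockouts, where the groups overlapped. Serpina3 genes are close copies of each other, so the split of reads between them is uncertain.

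**Figure D2:**
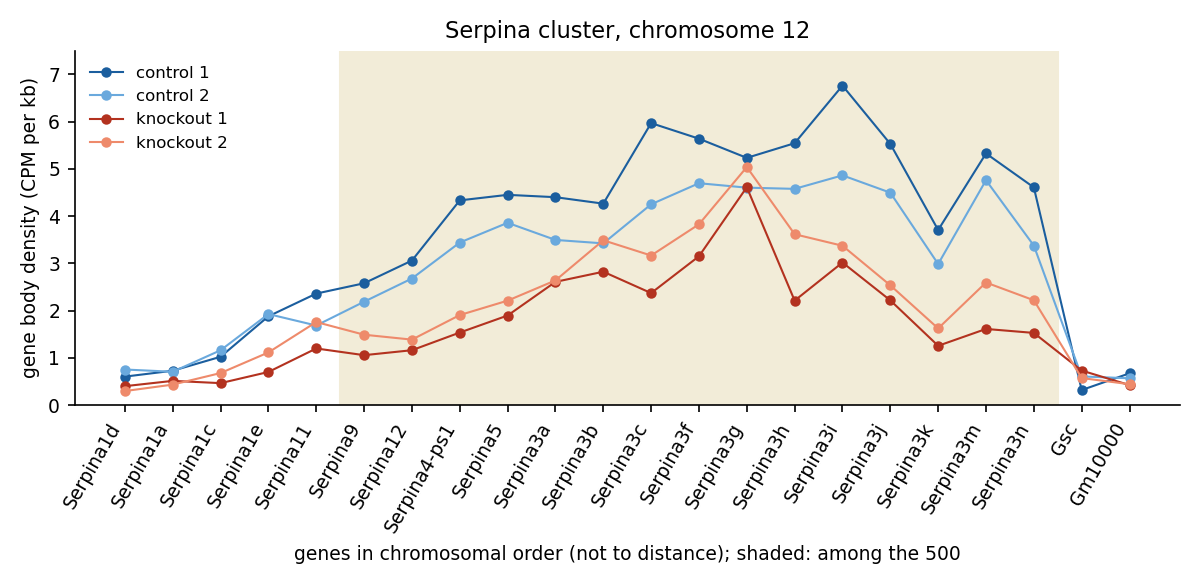
Gene body density in CPM per kb of 22 genes around the Serpina cluster of chromosome 12, in chromosomal order, with 1 line per library and the 15 members shaded. The controls climb to 6.76 and 4.86 over Serpina3i and drop to 0.318 and 0.606 over Gsc, and within the shaded run both knockouts lie below both controls except over Serpina3g and Serpina3b.

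Neighbouring members were common elsewhere too. Of 489 members with a position, 151 (30.9%) had another member within 50 kb, against 78 of 490 (15.9%) for the same count within the next 500 genes. In all, 24 runs of at least 3 members with gaps under 100 kb held 93 members. Of 7 Cd209 genes, which encode lectins of dendritic cells and macrophages, 5 on chromosome 8 were eligible, and these 5 were all members, with medians of 2.86 and 2.01 in the controls and 0.971 and 1.58 in the knockouts. Cd209a, the densest of them, had 4.68, 3.21, 1.67 and 2.25. Slc6a3, Slc6a18, Slc6a19 and Slc6a19os formed a run on chromosome 13 with medians of 3.15, 2.73, 1.63 and 2.17. Other runs held carboxylesterase genes (Ces2f, Ces2g, Ces3a, Ces3b), pregnancy-specific glycoproteins (Psg17, Psg19, Psg22), the cytokine genes Il19 and Il24 with Pigr, and Bpif genes of mucosal secretions. A run on chromosome 7 with Cd33 and Siglece, sialic acid-binding receptors of myeloid cells, differed in level: its medians were 3.3 and 2.43 in the controls and 4.63 and 2.48 in the knockouts. These families were picked after their values were seen.

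The gene lists are read against the 3.09% of eligible genes that are members. Solute carriers, membrane transporters of small molecules, supplied 21 of their 304 eligible genes (6.91%). Among them were Slc22a6, an organic anion transporter of the kidney, with 3.64, 2.81, 2.03 and 1.87 CPM per kb in controls 1 and 2 and knockouts 1 and 2. The noradrenaline transporter Slc6a2 had 3.22, 2.41, 1.30 and 1.97, and the betaine and GABA transporter Slc6a12 had 3.65, 2.55, 0.954 and 1.76. In all 3 transporters both knockouts lay below both controls, as in 86.0% of members and 26.5% of all genes tested over the body. The choice used the control body counts, so nothing is read from this order. Slc12a3, the thiazide-sensitive sodium chloride transporter of the kidney, went the other way with 2.36, 2.20, 3.87 and 2.85. Slc6a2, Slc6a12 and Slc12a3 were not among the 4 densest of the list and were picked outside the rule for naming genes. Voltage-gated and potassium channels supplied 7 of 83 (8.43%), among them Kcnk5 and Kcnj5, keratins 3 of 40 (Krt83, Krt80, Krt7) and collagens 2 of 18 (Col9a3, Col6a2).

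Blood gene lists supplied between 0 and 2 members each, counts too small to set apart from that share. Of 20 eligible regulators of blood stem cells, 1 was a member: Fgd5, a gene used to mark them, with 2.69, 2.39, 1.55 and 1.84. Of 24 lymphoid genes 2 were members. Cd8a, a T cell co-receptor, had 2.77, 2.19, 1.25 and 1.56, and Zap70, a T cell receptor kinase, had 2.37, 2.29, 1.45 and 2.03. The stromal list gave Sparc, a matrix protein, and the interferon list gave Mx1, an antiviral GTPase. Mx1 read 2.33 and 2.35 in the controls and 2.81 and 2.75 in the knockouts, with both knockouts higher. The Mx1-cre transgene carries Mx1 promoter sequence, and reads of transgene and gene cannot be told apart in that region. Erythroid (0 of 15), granulocyte and monocyte (0 of 10) and hedgehog pathway genes (0 of 11) gave none.

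The lists of genes that every cell uses gave no member, though each list alone is too small to read a 0 against 3.09%. No eligible gene for splicing factors (0 of 26), translation factors (0 of 22), ribosomal proteins (0 of 12), oxidative phosphorylation (0 of 58), the proteasome (0 of 35), the cell cycle (0 of 34), chromatin regulators (0 of 25) or the HBO1 complex and acetyltransferases (0 of 16) was a member. The median splicing factor read 0.223 CPM per kb in the control mean and 1.53 in the knockout mean. Immediate-early genes gave 0 of 8, with 0.567 in the controls and 5.72 in the knockouts. Zinc finger genes gave 1 of 350 (0.286%, Zfp957) and olfactory and vomeronasal receptors 1 of 175 (0.571%, Olfr70). Hox genes (0 of 9), silent developmental regulators (0 of 15) and the replication-dependent histones (0 of 2) gave none, in lists too small to read against 3.09%. Receptors had the lowest control median of these lists, 0.143, beside 0.198 in the knockouts.

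**Figure D3:**
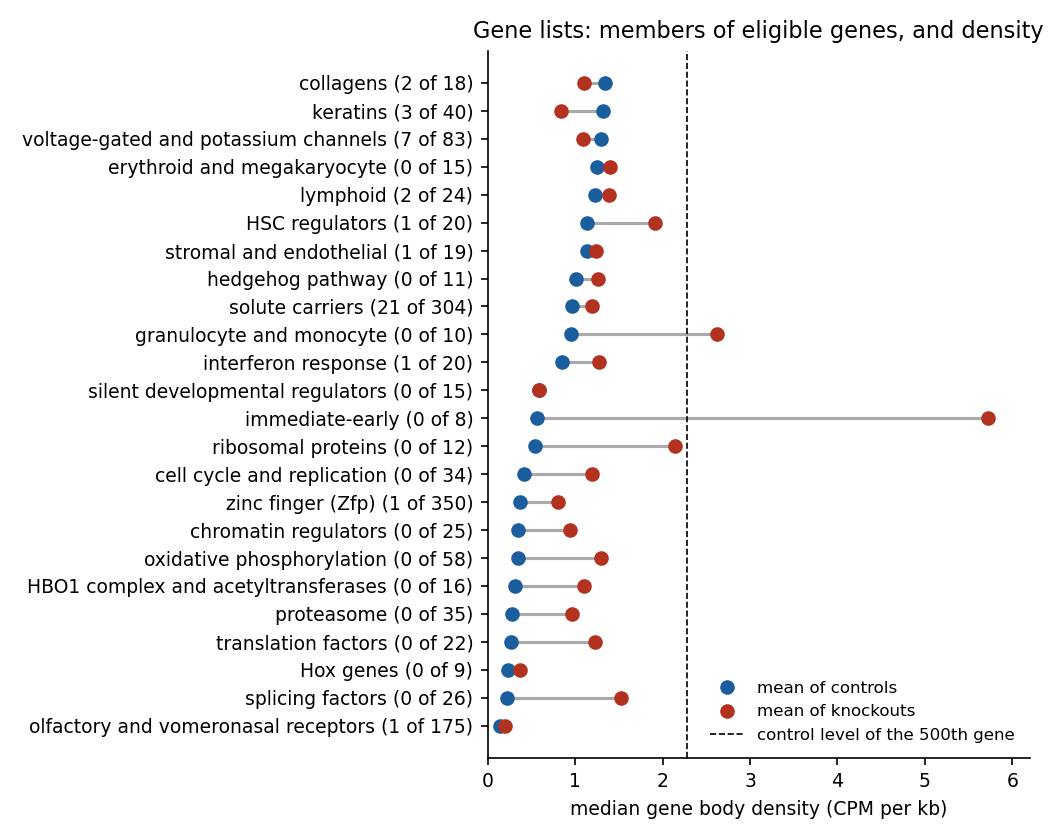
Median gene body density in CPM per kb of 24 gene lists, as the mean of the 2 controls (blue) and of the 2 knockouts (red), with the number of members of the eligible genes in brackets; the histone list, with 2 eligible genes, is left out. The dashed line is the control level of the 500th gene. All 24 lists, with or without members, sit to its left in the controls, from receptors at 0.143 to collagens at 1.34.

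The members also shared features of sequence and position. Within the 1000 bp around the start site the CpG ratio (observed over expected) had a median of 0.24, against 0.28 in the next 500 genes and 0.56 in all eligible genes. A ratio of at least 0.6 was found in 67 of 489 members (13.7%), in 21.0% of the next 500 genes and in 46.3% of eligible genes. Median GC content of the body was 48.0%, against 47.6% in the next 500 genes and 45.3% in eligible genes. The soft-masked repeat share was 17.2%, against 20.1% and 23.9% in the same order. Members were a little shorter, with a median of 16520 bp against 19525 bp. They were protein coding in 406 cases (81.2%, against 85.2% of both the next 500 and the eligible genes). Long noncoding RNAs made up 72 members (14.4%, against 11.6% of the next 500 and 8.29% of eligible genes). Another counted gene was overlapped by 59 members (12.1%), against 10.8% of the next 500 and 23.6% of eligible genes. Eligible genes that overlapped another had lower density (0.366 and 0.528 in the controls, against 0.630 and 0.767). Whether the authors dropped reads shared by overlapping genes is not given in the sources used here. Chromosome 6 gave 48 of its 789 eligible genes (6.08%), chromosome 19 gave 5 of 491, and the X chromosome 1 of 607, Cldn34d, in male mice with a single X.

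Short motifs were counted on both strands of the start regions. GGGCGG, the core of the Sp1 site, was in 26.1% of the 376 member start regions, 50.7% of those of eligible genes and 46.0% of all 18458. CCGGAAG, an ETS-type sequence, was in 3.72%, 13.5% and 11.7%. Both contain CpG, in which the members' start regions were poor. TATAAA was in 12.5%, 9.76% and 13.1%, the E-box CACGTG in 7.98%, 8.94% and 8.04%, the AP-1 sequence TGACTCA in 7.98%, 4.86% and 4.75%, and the GATA sequence AGATAA in 10.6%, 8.64% and 9.89%. In the 368 start regions of the next 500 genes GGGCGG was in 33.4% and CCGGAAG in 4.35%. There TATAAA was in 13.3%, CACGTG in 8.15%, TGACTCA in 5.98% and AGATAA in 14.1%.

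Genes picked for a high value tend to read lower in any new measurement, so lists chosen on 1 control were read in the other. The 500 genes densest in control 1 read a median of 2.77 CPM per kb there, 2.37 in control 2, and 1.44 and 1.92 in the knockouts. The 500 densest in control 2 read 2.42 there, 2.70 in control 1, and 1.5 and 1.99 in the knockouts. Read in the other control, the median log2 ratio was thus -0.25 from control 1 to control 2 and 0.15 from control 2 to control 1. Relative to the eligible median of each library these ratios were -0.59 and 0.49, so a difference between the control libraries is mixed with the effect of choosing. Read in knockouts 1 and 2 the ratio was -1.01 and -0.57 from control 1, and -0.74 and -0.33 from control 2. Relative to the eligible median it was -1.87 and -1.35 from control 1, and -1.26 and -0.77 from control 2. The control lists shared 365 genes. The control 1 list shared 17 with the 500 densest genes of knockout 1 and 101 with those of knockout 2, and the control 2 list shared 15 and 114. A list of 500 genes is 3.09% of the eligible genes, and the 17 and 15 shared with knockout 1 lie near that share. The 500 densest genes of the knockout mean read only 0.732 and 0.901 in the controls, with 26 and 27 of them in the top 500 of controls 1 and 2.

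**Figure D4:**
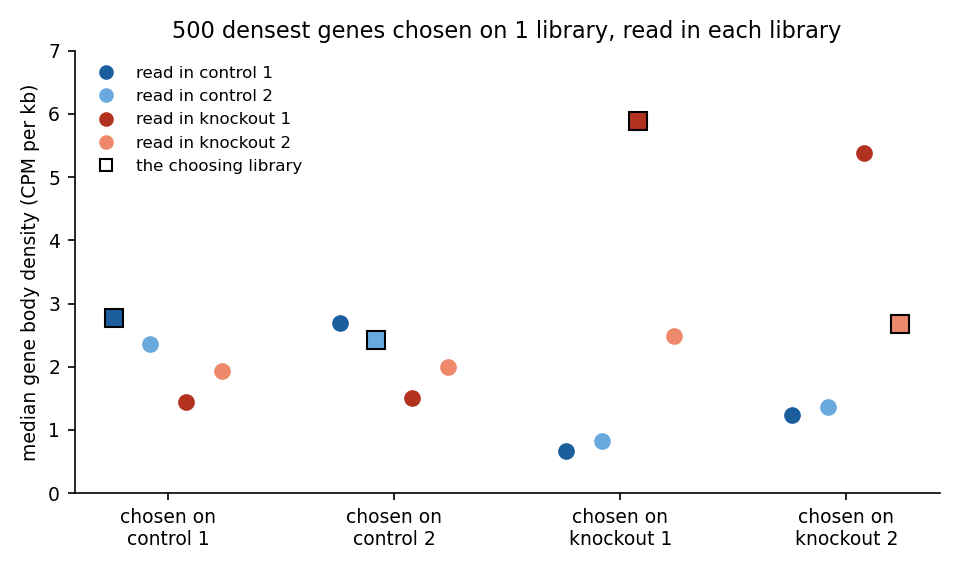
Median gene body density in CPM per kb of the 500 genes densest in 1 library, read in each of the 4 libraries; squares mark the library used for choosing. Lists chosen on a control stay between 2.37 and 2.77 in both controls and read 1.44 to 1.99 in the knockouts.

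With the choosing control left out of the fit, the gene body fold could be tested against the other control. For genes chosen on control 2 and tested against control 1, edgeR called 148 of 500 lower in the knockouts and 1 higher, where 4.89% of all genes were called lower and 12.7% higher, and the median log2 fold was -1.10. For genes chosen on control 1 and tested against control 2, it called 1 lower and 2 higher, where 0.0987% of all genes were called lower and 6.62% higher. The median log2 fold was then -0.78 and 97 genes were lower at an unadjusted p under 0.05. In these fits the lone control is assumed to vary like the knockouts. Both knockouts read below control 1 in 428 of the 500 genes chosen on control 2 (29.9% of all genes tested), and below control 2 in 432 of the 500 chosen on control 1 (31.4% of all genes tested).

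With both controls, as a description, 363 of 500 members were called lower over the gene body and 2 higher, where 15.2% of all genes were called lower and 23.1% higher. The median log2 fold was -0.995 for members and 0.02 for all genes tested. Fold changes come from the edgeR fit with TMM scaling, which the CPM values do not carry. Kif12, a kinesin, read 4.82 and 3.61 CPM per kb in the controls and 1.24 and 1.68 in the knockouts. Nobox, an oocyte transcription factor, read 4.74, 3.25, 1.58 and 1.49. Opn4, the light-sensing melanopsin of the retina, read 3.31, 2.80, 1.07 and 1.38. Slc5a9, a sugar transporter, Marco, a scavenger receptor of macrophages, Oxgr1, a receptor for oxoglutarate, Thbs2, a matrix glycoprotein, and Serpina3m had log2 folds of -1.66 to -1.61. These 8 genes had the lowest folds among the members that passed the rule for naming genes. That rule asked for both knockouts below both controls, a level above the median and a name that is not predicted.

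Members were among the densest genes of knockout 2 more often than of knockout 1. Of the 500, 109 were in the top 500 of knockout 2 and 15 in that of knockout 1. Each such list is 3.09% of the eligible genes, and the 15 lie near that share. All 500 ranked above the median eligible gene in knockout 2, and 468 did in knockout 1. The top 500 of both knockouts held 14 members, and 316 of all 16191 eligible genes. The count of 14 is not read as a result. Cd33 read 3.14 and 2.10 CPM per kb in the controls and 23.3 and 7.69 in the knockouts. Il12a, a subunit of interleukin-12, read 3.28, 2.79, 13.2 and 5.48. Cd93, a receptor of endothelial and blood progenitor cells, read 4.40, 3.6, 10.1 and 4.98. The rule that named these genes asked for both knockouts above both controls, and in all 3 genes knockout 1 lay far above knockout 2. The same rule and order held for F7, coagulation factor VII, with 3.15, 2.39, 7.82 and 3.46, for Ffar2, a receptor for short-chain fatty acids, with 2.79, 2.58, 6.41 and 3.24, and for Hjurp with 3.11, 3.25, 7.54 and 4.72. The log2 folds of Cd33 and Il12a over the body were 2.17 and 1.24.

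The upstream 5 kb, which the choice did not use, was lower in the knockouts at most members. The median member had 108 and 89.5 CPM in the controls and 27.2 and 55.2 in the knockouts, scaled to the upstream total of the library. All eligible genes had 25.8 and 30.6 in the controls and 26.3 and 35.6 in the knockouts. In knockout 1 the median member thus stood at 1.04 times the eligible median, against 4.18 and 2.92 times in the controls and 1.55 times in knockout 2. Of 489 members that passed the filter on low counts, edgeR called 174 lower and 3 higher at an adjusted p under 0.05, where 14.3% of all 23200 genes tested were called lower and 24% higher. Both knockouts lay below both controls in 448 members (91.6%), against 42.4% of all genes tested. The median log2 fold was -1.08 against -0.09 over all genes. In the next 500 genes 28.3% of 491 tested were called lower and 2.44% higher, with a median log2 fold of -0.93. Both knockouts lay below both controls in 79.4% of these, so the fall was not particular to the 500 members. Fewer cells carrying the mark and less mark per cell cannot be told apart in these bulk samples.

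That count depended on every library, on the scaling and on the model. With any 1 library left out, 0 or 1 member was called lower (15 to 276 at an unadjusted p under 0.05), where 0% to 1.14% of all genes were, while the members' median stayed 0.77 to 1.25 below the median of all genes. Scaled on receptor genes, 0 members were called lower (8 at an unadjusted p under 0.05) and 7 higher, where 0.164% of all genes were called lower and 31.0% higher. With totals pooled over the 3 region classes 24 were called lower and 7 higher, where 1.97% and 33.1% of all genes were. With the replicate number as a block, 12 members (2.45%) were called lower, a smaller share than the 3.79% of all genes. These scalings moved the median of all genes to 0.83 and 0.46, and the members' medians of -0.19 and -0.52 lay 1.02 and 0.99 below it. Upstream, genes chosen on control 1 had a median log2 fold of -0.88 against control 2, with both knockouts below it in 446 of 490 tested (51.2% of all genes). Those chosen on control 2 had -1.18 against control 1, with both knockouts below it in 453 of 493 (45.4% of all genes). None of either list was called lower upstream by edgeR with a single control, and 21 and 74 were lower at an unadjusted p under 0.05.

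**Figure D5:**
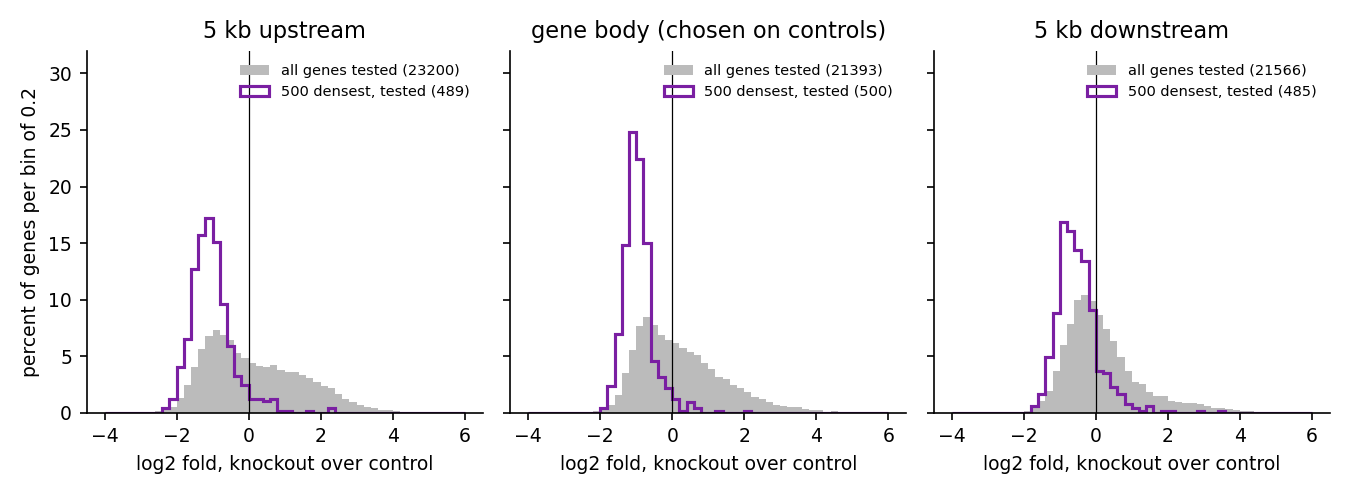
Distribution of log2 folds, knockout over control, in percent of genes per bin of 0.2, for all genes tested (grey) and the members tested (purple line), in the 5 kb upstream, the gene body and the 5 kb downstream. The members' medians are -1.08, -0.995 and -0.59; the gene body panel shows the contrast whose control level chose the members.

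Marco had the lowest upstream fold among the members named. Its 5 kb upstream read 161 and 137 CPM in the controls and 17.8 and 41.4 in the knockouts, a log2 fold of -2.21 ± 0.58 (SE, adjusted p = 0.00129). Dcstamp, needed for osteoclast fusion, read 98.8, 68.6, 9.38 and 26.4 (log2 fold -2.12 ± 0.51, adjusted p = 0.000359). Oxgr1 read 173, 98.3, 9.38 and 51.7 (log2 fold -2.09 ± 0.57, adjusted p = 0.00176). The rule that named these genes asked for groups that did not overlap. Knockout 1 was the lowest library in each. Tmem212, Angpt4, a ligand of the Tie2 receptor, the pseudogene Stk-ps2, Serpina3m and Psg22 fell by 2.09, 2.07, 2.00, 1.98 and 1.98 on the log2 scale. Of the 15 genes of the Serpina run 7 were called lower upstream, with a median log2 fold of -1.35. Among all members tested 35.6% were called lower upstream, and 14.3% of all genes tested. The 7 are too few to set apart from the members' share, and these neighbouring, similar genes are not separate observations. Serpina3i read 227, 185, 29.1 and 107 upstream (log2 fold -1.51 ± 0.66, adjusted p = 0.0554), and Serpina3g read 167, 157, 91.0 and 121 (log2 fold -0.44 ± 0.64, adjusted p = 0.583). Serpina3g and Mroh2a, at -0.79, were not called, and their sign turned with receptor scaling.

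Among the members of the gene lists, some passed upstream and some did not. Zap70 read 131 and 160 CPM upstream in the controls and 24.4 and 62.1 in the knockouts (log2 fold -1.62 ± 0.58, adjusted p = 0.0184). Slc34a2, a phosphate transporter of lung and gut, read 177, 121, 30.02 and 54.0 (log2 fold -1.70 ± 0.58, adjusted p = 0.0149). Slc6a13, a GABA transporter, read 148, 126, 24.4 and 71.3 (log2 fold -1.41 ± 0.57, adjusted p = 0.0382). These 3 genes fell without overlap of the groups, as did 91.6% of members tested upstream and 42.4% of all genes tested. Slc34a2 was picked outside the rule for naming genes. Cd8a (adjusted p = 0.0618) and Fgd5 (adjusted p = 0.109), with log2 folds of -1.18 and -1.01, did not pass, and both knockouts lay below both controls in each.

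Only 3 members were called higher upstream. Ppp6r1, a regulatory subunit of protein phosphatase 6 whose CpG-dense start is printed above, read 12.9 and 18.5 CPM in the controls and 76.0 and 66.7 in the knockouts (log2 fold 2.39 ± 0.50, adjusted p = 3.39e-05). Those levels rest on 15, 20, 81 and 58 counts. Cd33 read 65.3, 63.1, 224 and 123 (log2 fold 1.67 ± 0.65, adjusted p = 0.0304). Sspo, which encodes a secreted brain protein and was picked after its values were seen, read 13.7, 9.27, 55.3 and 37.9 (log2 fold 2.22 ± 0.50, adjusted p = 0.000142). The groups did not overlap in Sspo, and for Ppp6r1 and Cd33 the rule that named them asked for that. Il12a, higher over its body, read 155, 134, 78.8 and 90.8 upstream, below the controls in both knockouts and not called.

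Split by the CpG ratio of the start, the 66 CpG-rich members tested had a median upstream log2 fold of -0.62, with 9 lower and 1 higher, and the 412 CpG-poor members -1.14, with 160 lower and 2 higher. Eligible genes outside the 500 had medians of 1.05 when CpG-rich (3090 of 6699 higher, 137 lower) and -0.49 when CpG-poor (971 of 6972 higher, 1367 lower). CpG-rich members thus had a negative median and other CpG-rich genes a positive median, and the difference was not tested. These sets also differed in control body density, which chose the members (medians of 2.75 and 2.28 CPM per kb against 0.378 and 0.548). No comparison matched on that level was made. Protein-coding members (-1.08) and long noncoding RNA members (-1.06) differed little in their medians, and the densest 100 members had -1.16 and the last 100 -0.94.

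Downstream the difference was smaller. The median member read 96.4 and 83.1 CPM in the controls and 39.9 and 62.8 in the knockouts, and all eligible genes 26.2, 31.5, 25.1 and 32.8. Of 485 members tested, edgeR called 19 lower and 3 higher, where 2.29% of all genes were called lower and 10.8% higher. Both knockouts lay below both controls in 371 members (76.5%, against 39.1% of all genes tested), with a median log2 fold of -0.59 against -0.03. In the next 500 genes 3.40% of 471 tested were called lower and 2.12% higher, with a median log2 fold of -0.47. Both knockouts lay below both controls in 66.2% of these. On both flanks 11 members were called lower, among them Oxgr1, Thbs2, Slc5a9 and Pcare, and 156 were called lower upstream and not called downstream. Over all genes tested 14.3% were called lower upstream and 2.29% downstream. The share of all genes with each pair of calls was not computed, so these counts are not read as a result. Bmp7, a secreted growth factor, read 182 and 80.5 CPM downstream in the controls and 22.2 and 47.8 in the knockouts (log2 fold -1.74 ± 0.48, adjusted p = 0.0236). Pcare, a photoreceptor gene, read 126, 79.6, 14.8 and 40.9 (log2 fold -1.71 ± 0.43, adjusted p = 0.0119). The 3 that rose were Denn2b, with 9.52 and 16.6 in the controls and 193 and 56.0 in the knockouts (log2 fold 3.57 ± 0.59, adjusted p = 0.000978), the gelatinase gene Mmp2 at 2.98 and Apoc2, an activator of lipoprotein lipase, at 1.55. Mmp2 did not pass with DESeq2 size factors (adjusted p = 0.0513), a minimum mean count of 50 (0.0556), no filter (0.0548), receptor scaling (0.0665), the block (0.142) or without control 1 (0.775) or control 2 (0.525). Apoc2 did not pass with receptor scaling (adjusted p = 0.0562), no filter (0.0779), the DESeq2 Wald test (0.0986), or without control 1 (0.116), control 2 (0.0521) or knockout 1 (0.523), and Denn2b did not without control 1 (0.0616). The count of downstream calls also turned on the libraries, from 0 without control 1 (18 at an unadjusted p under 0.05), where 0.13% of all genes were called lower, to 91 of 493 (18.5%) without knockout 2, where 6.14% were. With no filter on low counts (0.6% of members, 0.799% of all genes) or with the block (1.44% of each) members were not called lower more often than all genes.

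As a share of all counts, the members held 5.56% and 4.58% of upstream counts in the controls and 1.68% and 2.88% in the knockouts. The means were 5.07% ± 0.69 and 2.28% ± 0.85 (SD, n = 2 each, exact two-sided permutation p = 0.333, the smallest that 2 against 2 libraries allow). Downstream they held 5.05% and 4.26% in the controls and 2.45% and 3.32% in the knockouts, with the same exact permutation p of 0.333. Over gene bodies, which the choice used, they held 3.56% and 3.05% in the controls and 2.06% and 2.48% in the knockouts, while making up 1.21% of the summed gene length. In each region both knockouts lay below both controls. The ratio of upstream to body density, taken per gene, had a median over members of 0.717 and 0.741 in the controls. In the knockouts it was 0.822 and 0.803. All eligible genes had 0.886 and 0.914 in the controls and 1.19 and 1.06 in the knockouts. The next 500 genes had 0.683 and 0.734 in the controls and 0.857 and 0.806 in the knockouts. The choice asked for a high control body density, which divides this ratio, so a low control ratio follows in part from the choice.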

How the data were processed

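The authors deposited whole-number read counts per Entrez gene for the gene body and the 5 kb on either side, with a length column in bp, per the file headers. The submitters' processing notes name featureCounts and mm10; the aligner, annotation release, duplicate handling and any spike-in are not given in the sources used here. Without a spike-in value, all levels are relative to the library. Series tables and library files differed in 0 values.

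From these counts, density was computed as CPM (the count over the column total, times 1e6) per kb of the deposited length, with no pseudocount. Symbols and positions were matched by identifier to RefSeq on GRCm38.p6: 489 of the 500 members matched and 11 have no symbol. For 419 members the annotated and deposited lengths differed by at most 20%. Each region class was tested over all its genes in edgeR 4.0.16 under R 4.3.3, by glmQLFTest (quasi-likelihood). Genes were kept by filterByExpr, which asked for a count of 10 and a total of 15, scaling was TMM, and there was no covariate. P-values had Benjamini-Hochberg adjustment at 0.05. The SE is the log2 fold divided by the square root of F. The edgeR step was tested on simulated data. DESeq2 1.42.0, pandas 2.3.3, scipy 1.17.1 and matplotlib 3.10.9 were also used.

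The members, gene lists and tests were chosen with earlier results of these data known. Named genes are the 10 densest members, the 8 highest and 8 lowest by fold over the body and upstream and 5 and 5 downstream (called on the flanks, no overlap of groups, above the median level, predicted genes passed over), and up to 4 densest members per list. The solute carriers Slc6a12, Slc6a2, Slc34a2 and Slc12a3 were picked outside this rule. The alternatives tried were 4 other scalings, the DESeq2 Wald test, 2 other filters, each library left out, the replicate number as a block and other choices of members. A GC correction, a crossed block and the removal of flanks inside other counted genes were chosen after seeing the data.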

Additional observations from a re-analysis of the deposited data

How the results depend on the processing

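Precision is limited by 2 libraries a group and by knockout depth: the median member had 29 upstream counts in knockout 1. The percent of members called lower was 35.6 upstream, 3.92 downstream and 72.6 over the body, beside 14.3, 2.29 and 15.2 of all genes (given in brackets below); the cause of each change was not tested. Upstream it was 4.91 (1.97) with totals pooled over the region classes, 0 (0.164) with receptor scaling, 22.5 (8.85) with the GC correction and 0 to 0.203 with 1 library left out. Downstream it was 9.48 (4.37) with library totals, 0.206 (0.278) with receptor scaling, 0.619 (0.25) with the DESeq2 Wald test, 0.6 (0.799) with no filter, 1.85 (1.75) at a mean count of at least 50, 2.51 (2.29) for members chosen on control 2 alone, and 0 to 18.5 with 1 library left out. Over the body it was 24.8 (4.63) with library totals, 36.8 (6.36) with pooled totals, 1.8 (0.869) with receptor scaling, and 0.2 to 81.4 with 1 library left out. For members chosen on control 1 and tested against control 2, 0.2 became 0 with the DESeq2 Wald test (66 lower at an unadjusted p under 0.05) and 0 for 250 members (59). For those chosen on control 2, 29.6 (4.89) became 4.0 (0.866) with library totals. With the replicate number as a block the percents were 2.45 (3.79) upstream, 1.44 (1.44) downstream and 29.8 (4.15) over the body, so that on neither flank were members called lower more often than all genes. Same-numbered libraries did not deviate together (correlations of -0.28, -0.22 and -0.36), and the labels do not say that a number pairs them. With the numbers crossed, 305 members were called lower upstream and 87 downstream (62.4% and 17.9%, beside 23.4% and 8.68% of all genes). The difference in the members' share of counts, in percentage points, was -1.04 over the body, -2.79 upstream and -1.77 downstream; it was -0.518, -1.62 and -1.01 with 250 members and -1.67, -4.65 and -2.86 with 1000, and ran from -1.29 to -0.784, -3.39 to -2.19 and -2.2 to -1.33 with 1 library left out. Among named genes, the upstream log2 fold turned to 0.12 for Mroh2a with receptor scaling, and to 0.13 and 0.52 for Serpina3g with pooled totals and receptor scaling. The 10 named upstream calls were lost in 10 cases without control 1 or knockout 1, 9 without control 2, 8 without knockout 2, 9 with receptor scaling and 4 with the block. Of the 8 named downstream calls, 8 were lost without control 1, 7 with receptor scaling, 6 with no filter, 4 with the DESeq2 Wald test, 4 without knockout 1, 3 without control 2, 2 with the block, 2 with DESeq2 size factors and 1 with the GC correction, and 4 of 6 were lost at a mean count of at least 50.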
